A study of Homo sapiens with 18 samples.

Results

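HTOXAR3 cells were compared with HT29 cells after 24 h of oxaliplatin (OXA) given without any other agent. The comparison rested on 6 of the 18 arrays of the study, 3 of each line, taken by the line and treatment in the sample labels, and on 36203 of the 36204 gene or transcript names measured. HT29 is a human colorectal cancer (CRC) line, and HTOXAR3 is a single resistant subline obtained from it by continuous culture in rising OXA concentrations, so that a difference found here belongs to this subline. HT29 received 10 µM OXA and HTOXAR3 received 30 µM OXA, and line and dose cannot be told apart under treatment. The other 12 arrays held both lines untreated and both lines given the same OXA doses together with 10 µM Curcumin, a plant polyphenol. The labels call the 3 arrays of each group biological replicates, and the p-values measure the spread between such arrays.

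OXA is a platinum drug whose adducts on DNA, mostly crosslinks between neighbouring guanines, block replication and transcription, and it is known to disturb the making of ribosomes. Cells remove these adducts chiefly by nucleotide excision repair. Lower uptake, export from the cell, binding to glutathione or metallothioneins and a raised threshold of apoptosis are known routes by which CRC cells withstand it. NF-kB, a family of dimeric transcription factors held in the cytoplasm by inhibitors such as *NFKBIA*, switches on many chemokines, among them *CXCL1*, *CXCL2*, *CXCL3* and *CXCL8*, which signal through the receptors *CXCR1* and *CXCR2*.

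Values are normalized log2 probe intensities, on which 1 unit is a 2-fold difference, and levels of different probes are not comparable. A gene was called when its Benjamini-Yekutieli (BY) adjusted p in limma was below 0.05 and its fold difference was above 1.2. On the 6 arrays 62.3% to 63.2% of the spots were well above background, against 52.4% to 63.6% over the 18 arrays. Profiles of arrays of the same line correlated at 0.9878 to 0.9939 and those of different lines at 0.9808 to 0.9849 under OXA. Of 12 colon epithelial markers 10 were well above background on all 6 arrays. The epithelial adhesion protein *EPCAM* and the simple keratins *KRT8*, *KRT18*, *KRT19* and *KRT20* were not called between the lines, whereas *VIL1* and *LGALS4* were lower in HTOXAR3. *CDX2* was well above background in HT29 alone, but its difference of -2.25 (SE 0.56) was not called. Of 6 fibroblast markers 1 was well above background on all 6 arrays, as were 6 of 7 leukocyte and 2 of 5 endothelial markers, and of these 18 markers the monocyte receptor *CD14* alone was called, 0.68 higher in HTOXAR3 with BY adjusted p = 0.00262.

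Under OXA 5111 names (14.1% of those tested) were called between the lines. Of these 2585 (7.14%) were higher and 2526 (6.98%) lower in HTOXAR3, with a median absolute difference of 0.65, and 1266 differed by more than 2-fold. Slide 2 held 1 array of each line under OXA, and slide 3 held 1 of HT29 and 2 of HTOXAR3. Within each of these slides all 5107 called names that had a value there kept the sign of their difference, which is a description, since 5 of the 6 arrays that chose these names lie on these slides. The untreated lines, compared on arrays of their own, gave 4177 called names (11.5%). Both comparisons called 3086 names, which were 60.4% of the calls under OXA and 73.9% of the untreated calls, and 3056 of them pointed the same way.

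The difference between the lines itself changed with OXA for 364 names (1.01%). It was raised, that is, it moved toward HTOXAR3, for 220 names (0.608%) and lowered for 144 (0.398%). The scatter of the line difference under OXA against that in untreated cells shows most names along the line of equality and the 364 changed names away from it.

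**Figure D1:**
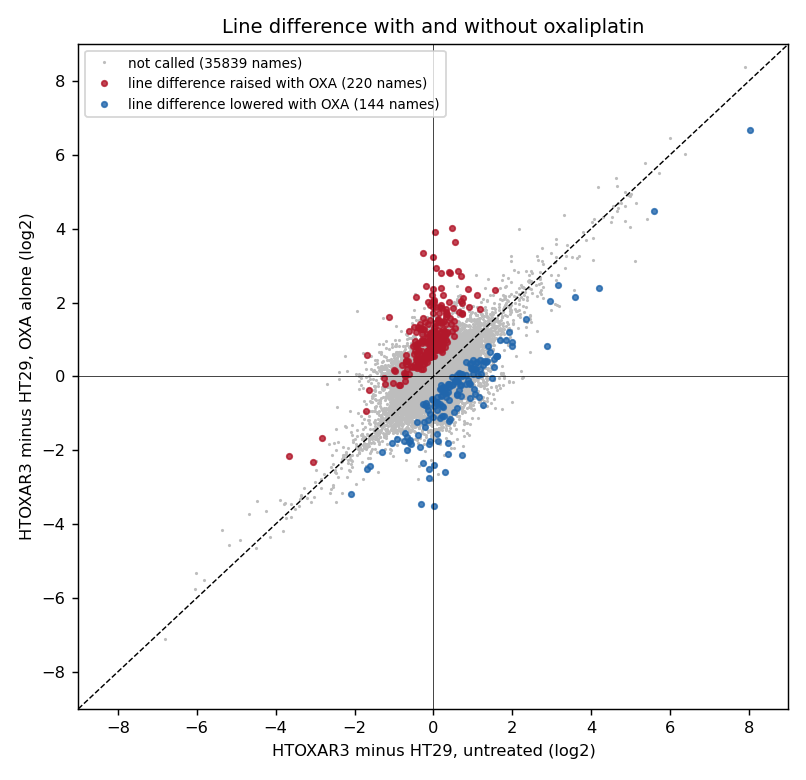
Difference between HTOXAR3 and HT29 (log2, each point a gene or transcript name) in untreated cells on the horizontal axis and under OXA on the vertical axis, with a dashed line of equality. The 220 names whose difference was raised with OXA are red and lie above that line, the 144 lowered names are blue and lie below it, and 35839 names without a called change are gray.

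Among genes well above background on all 6 arrays, 7 of the 10 largest rises belonged to MAGEA, CSAG or PAGE genes of the X chromosome, a grouping made after the values were seen. These cancer/testis genes are normally silent outside the germ line and are often switched on in tumors. *MAGEA6* (probe at chrX:151870745-151870804, GRCh37) was at 13.90, 13.82 and 13.89 in HTOXAR3 and at 8.95, 8.87 and 8.95 in HT29. The lines did not overlap, and the difference was 4.95 (SE 0.07, 30.8-fold, BY adjusted p = 9.9e-14, limma). *MAGEA2B*, *MAGEA12*, *CSAG1*, *CSAG3* and *CSAG4* differed by 4.91, 4.89, 4.68, 4.56 and 4.49. Dimmer probes that were also well above background on all 6 arrays gave 1.23 (SE 0.13) for *CSAG3* and 3.45 (SE 0.17) for *MAGEA6*. MAGEA and CSAG genes have near-identical copies, and which copy each probe read is uncertain. *PAGE1*, a further cancer/testis gene of the X chromosome, was at 10.20, 10.27 and 10.18 in HTOXAR3 and at 5.50, 5.73 and 5.55 in HT29, a difference of 4.62 (SE 0.10, BY adjusted p = 9.64e-12). The differences of *MAGEA6* and *MAGEA2B* in untreated cells were 5.00 and 4.94.

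The largest rise among these genes was that of *DMKN*, a secreted protein of stratified epithelia (chr19:35988135-35988194). It stood at 13.79, 13.80 and 13.71 in HTOXAR3 and at 7.15, 6.996 and 7.17 in HT29. The difference was 6.66 (SE 0.11, 101-fold, BY adjusted p = 5.53e-13). In untreated cells it was 8.04, and it was lowered with OXA by this probe (-1.37, BY adjusted p = 0.00218), while 2 further *DMKN* probes gave line differences of 5.65 and 3.61 and changes of -0.19 and 0.40. *MGP*, an inhibitor of tissue calcification, was at 10.40, 10.44 and 10.49 in HTOXAR3 and at 5.32, 5.26 and 5.28 in HT29. It differed by 5.16 (SE 0.17, 35.7-fold, BY adjusted p = 4.51e-10), and *TOX2*, an HMG-box transcription factor, by 4.60.

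The largest fall among them was that of *TM4SF4*, a membrane protein of the L6 family (chr3:149216588-149216647). It stood at 6.70, 6.92 and 6.87 in HTOXAR3 (6.83 ± 0.12, SD, n = 3) and at 13.87, 13.96 and 13.96 in HT29 (13.93 ± 0.05, SD, n = 3). The lines were far apart on every array, with a difference of -7.10 (SE 0.09, 137-fold, BY adjusted p = 2.35e-14). It was -6.80 in untreated cells. *IGFBP2*, which binds insulin-like growth factors, was at 5.46, 5.49 and 5.21 against 9.84, 9.73 and 9.91, a difference of -4.44 (SE 0.10, BY adjusted p = 7.85e-12). *RAMP1*, a partner protein of the calcitonin receptor-like receptor, was at 8.21, 8.14 and 8.25 against 12.23, 12.48 and 12.41, a difference of -4.17 (SE 0.11, BY adjusted p = 3.27e-11). *FGF19*, the hormone by which the ileum restrains bile acid synthesis, was at 6.95, 6.98 and 6.62 against 10.61, 10.54 and 10.55, a difference of -3.72 (BY adjusted p = 6.43e-08). HT29 was above HTOXAR3 on every array for each of these genes. *KBTBD11* (-5.51), the sterol carrier *GRAMD1B* (-4.64), the focal adhesion adaptor *LIMS2* (-4.34) and *PDZK1IP1* (-3.85), a small membrane protein of epithelia, fell likewise. A dimmer *LIMS2* probe, well above background on only 4 of the 6 arrays, gave -2.34. For 2 of the 10 leading falls another probe that was well above background on all 6 arrays showed no like difference. *AUTS2*, a chromatin regulator, differed by -5.75 by its brightest probe and by 0.09 (SE 0.25) by the other, and *CDK8*, the kinase of the Mediator complex, by -3.60 and -0.12. The plot of the leading genes shows that the 3 arrays of each line lay close together compared with the gap between the lines. These genes were chosen by that gap on the same arrays, so this is a description.

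**Figure D2:**
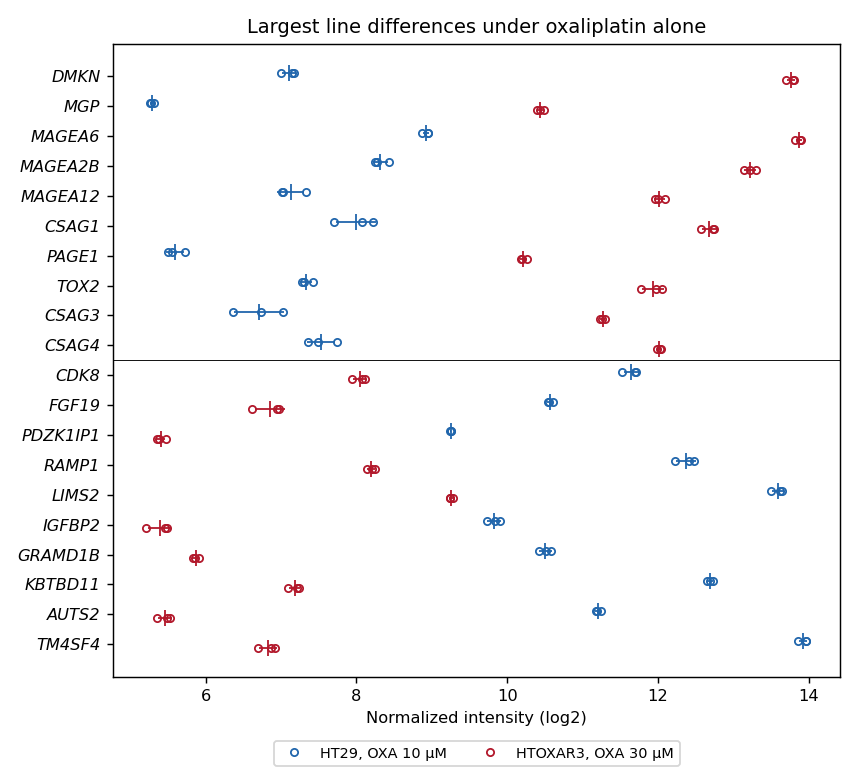
Normalized log2 intensity under OXA (horizontal axis) of the 10 genes with the largest rises and the 10 with the largest falls in HTOXAR3 among genes well above background on all 6 arrays. Points are arrays, and the larger marks with bars are the mean and SD of 3 arrays per line. The values of the lines do not overlap for any of the 20 genes, which were chosen for their large differences on these same arrays.

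A further 96 called names were well above background on the 3 HTOXAR3 arrays and on none of HT29, and 43 had the reverse pattern. Their folds are bounds, computed against the lowest signal of probes well above background. *CLEC3A*, a cartilage lectin, was at 12.56, 12.45 and 12.61 in HTOXAR3 and not well above background in HT29, at least 328.5-fold higher (BY adjusted p = 2.02e-12, limma). *APOBEC3C*, a cytidine deaminase that restricts retroelements, was at 10.22, 10.28 and 10.15, at least 63.7-fold higher. *TM4SF18*, *MAGEA1* and the neuronal calcium sensor *VSNL1* were at least 55.0-fold, 23.3-fold and 19.98-fold higher. In HT29 *DDC*, which makes dopamine and serotonin from their amino acid precursors, stood at 9.40, 9.52 and 9.57, at least 38.5-fold above HTOXAR3 (BY adjusted p = 5.44e-11). *IGFBP7*, *MGAT3*, which adds bisecting sugars to glycoproteins, the long noncoding RNA *LINC01116* and the ubiquitin hydrolase *UCHL1* were at least 16.4-fold, 7.48-fold, 7.39-fold and 5.42-fold higher in HT29.

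The change with OXA sets the line difference under OXA against that in untreated cells. *SLC19A1*, the reduced folate carrier, which also takes up antifolate drugs (chr21:46935085-46935144), showed the largest. Untreated, it stood at 11.05, 11.09 and 11.10 in HTOXAR3 and at 11.02, 11.05 and 11.07 in HT29, ranges that overlapped. Under OXA it stood at 10.10, 10.10 and 10.23 in HTOXAR3 and at 6.12, 6.16 and 6.41 in HT29. The line difference went from 0.03 to 3.91 (SE 0.15, 15.0-fold, BY adjusted p = 1.64e-09), a change of 3.88 (SE 0.21, BY adjusted p = 1.76e-06). HT29 had fallen by 4.81 (28.1-fold) and HTOXAR3 by 0.94. Within slides 2 and 3 the difference under OXA was 3.93 and 3.75, and a second *SLC19A1* probe gave a smaller change of 1.90.

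A like pattern was seen for 4 further genes. *SLC38A10*, a member of an amino acid transporter family, was at 13.34, 13.29 and 13.59 in HTOXAR3 and at 9.87, 10.14 and 10.19 in HT29 under OXA, and its difference changed by 3.61 (SE 0.22, BY adjusted p = 4.81e-06). Its other 2 probes differed from this brightest one in size or sign, at 1.10 and -0.97, the latter from a probe well above background on only 4 of the 6 OXA arrays. *PIGQ*, part of the enzyme that begins glycosylphosphatidylinositol anchors, was at 10.10, 10.33 and 10.38 against 6.02, 6.22 and 6.53 under OXA and at 11.33, 11.47 and 11.37 against 10.95, 10.91 and 10.88 untreated. Its change was 3.53 (SE 0.29, BY adjusted p = 7.78e-05), and its other probes gave 2.39 and 2.01. The last value (SE 0.61) came from a probe well above background on only 4 of the 6 OXA arrays. *CHLSN*, also known as *C7orf50*, was at 12.31, 12.37 and 12.35 against 9.17, 9.08 and 9.09, a change of 3.24 (SE 0.09, BY adjusted p = 2.99e-09). *ARFRP1*, a small GTPase of the Golgi, was at 12.68, 12.83 and 12.87 against 9.10, 9.01 and 9.31, a change of 3.096 (SE 0.17, BY adjusted p = 2.75e-06), while its other probes gave 1.496 and -0.19. In all 4 the HT29 level fell with OXA by more than that of HTOXAR3, by 4.34 against 0.73 for *SLC38A10* and by 3.95 against 0.71 for *CHLSN*.

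In the opposite direction, *PDE6G*, the inhibitory subunit of the photoreceptor phosphodiesterase (chr17:79617490-79617549), was close to equal in untreated cells, at 6.87, 6.80 and 6.54 in HTOXAR3 and 6.71, 6.74 and 6.69 in HT29. Under OXA it stood at 8.54, 8.53 and 8.32 in HTOXAR3 and at 11.92, 12.05 and 11.98 in HT29. It had risen 38.6-fold in HT29 and 3.31-fold in HTOXAR3, so that the line difference changed by -3.54 (SE 0.12, BY adjusted p = 3.12e-08). *SPON2*, a secreted matrix protein (chr4:1160738-1160797), stood at 8.67, 9.002 and 9.07 against 10.94, 11.77 and 11.76, a change of -2.87 (SE 0.25, BY adjusted p = 0.000128). A dimmer *SPON2* probe, well above background on only 3 of the 6 OXA arrays, gave -0.31 (SE 0.45). *RGS11*, a regulator of G protein signalling, stood at 6.99, 7.31 and 7.11 against 8.47, 9.09 and 9.12, a change of -1.87 (BY adjusted p = 0.00138). *NHLRC4* changed by -2.15 (BY adjusted p = 0.00559), or by -1.40 and not called with the mean of all its probes. *SNORA48*, a small nucleolar RNA encoded within the gene *EIF4A1*, stood at 12.11, 11.99 and 11.99 against 13.12, 12.60 and 12.67 under OXA and differed the other way untreated, a change of -2.03 (BY adjusted p = 0.000998). Its call under OXA was lost without any of 4 of the 6 arrays, at -0.61 to -0.81. The plot of changed genes sets all 3 conditions side by side.

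**Figure D3:**
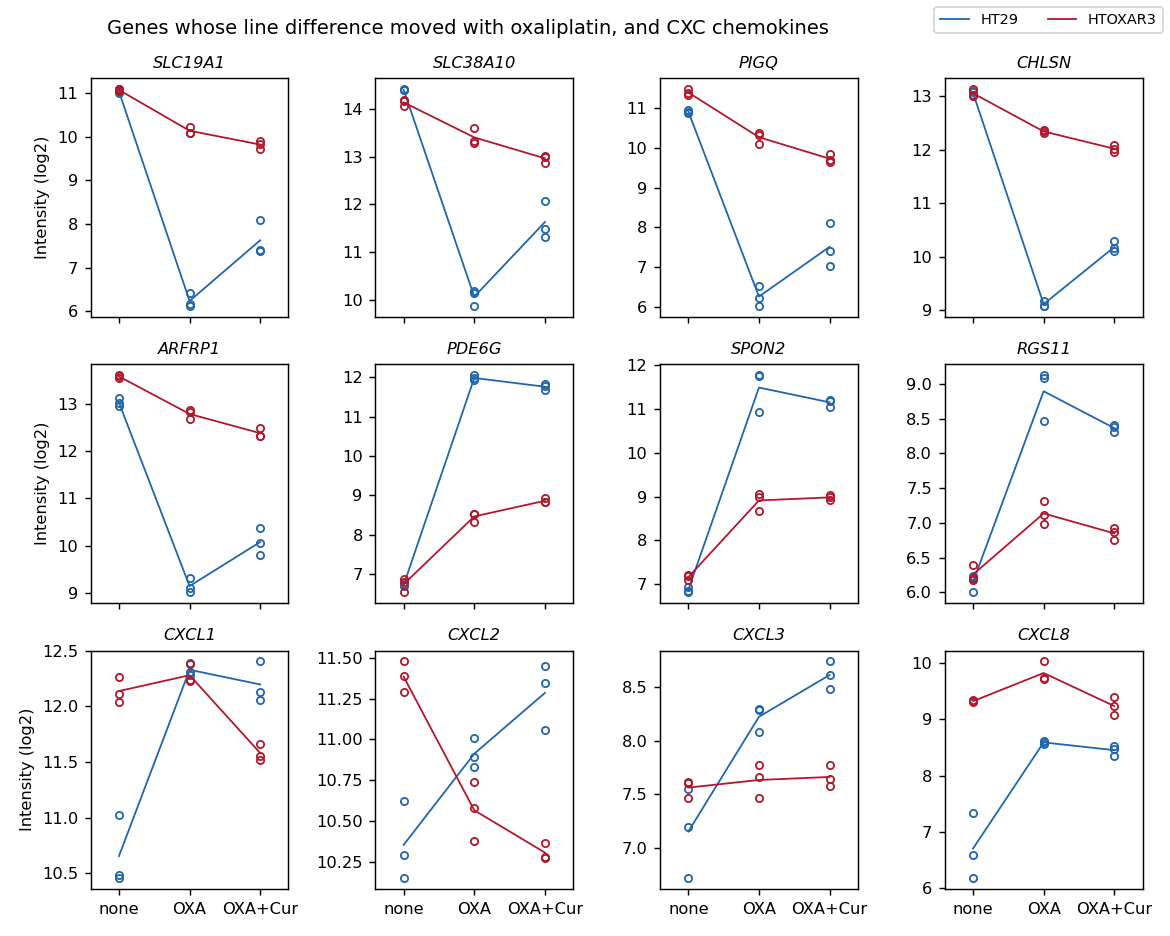
Normalized log2 intensity (vertical axis) of 12 genes in untreated cells, under OXA and under OXA with Curcumin (horizontal axis); points are arrays and lines join the means of 3 arrays for each line. *SLC19A1*, *SLC38A10*, *PIGQ*, *CHLSN* and *ARFRP1* separate under OXA through the low HT29 values, *PDE6G*, *SPON2* and *RGS11* through the high ones, and the HT29 values of *CXCL1*, *CXCL2*, *CXCL3* and *CXCL8* approach or pass those of HTOXAR3.

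Of the 220 raised names 207 had fallen with OXA in HT29 and 82 had fallen in HTOXAR3, with median responses of -1.25 and -0.27. Of the 144 lowered names 131 had risen in HT29 and 67 in HTOXAR3, with medians of 1.35 and 0.42. The OXA arrays in these counts also chose the names, and the counts describe the change without testing it. By the same fit 30 names were called in opposite directions under OXA and untreated. Among these, chosen after their values were seen, *TUBB3*, the neuronal beta-tubulin isotype, went from 1.15 higher in untreated HTOXAR3 to 0.57 lower under OXA, and *SEMA3B*, a secreted semaphorin, from 0.61 higher to 0.86 lower. *DOK7*, an adaptor of the muscle receptor kinase, went from 0.61 lower to 1.24 higher, *B3GALT6*, a galactosyltransferase of proteoglycan linkers, from 0.50 lower to 1.34 higher, and *SLC16A3*, the lactate exporter, from 0.45 lower to 0.85 higher.

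The changed names were not spread evenly along the chromosomes. This was noticed after the values were seen and is given without a test. Of the 219 raised names with a position, 146 (66.7%) lay within 5 Mb of the outermost probe of their chromosome, and 42 of the 144 lowered names (29.2%; 94 of 553 under Benjamini-Hochberg adjustment) did, against 4870 of 35870 of all names (13.6%) and 14.8% of names well above background. Within 2 Mb the shares were 50.2%, 18.1% and 6.91%. For changes over 4-fold the 5 Mb share was 28 of 34 (82.4%). Of the names called between the lines under OXA, 18.1% of the higher and 15.3% of the lower ones lay within 5 Mb of an end, and 11.3% and 8.0% lay within 2 Mb. Names higher under OXA and not called untreated had 25.7% within 5 Mb, and 161 of 946 lay within 2 Mb, and names called untreated had 14.2% within 5 Mb. Changed names lay near 30 chromosome ends, of which 28 had raised names. The low-coordinate end of chromosome 16 held 25 raised and 5 lowered names of 252 measured, that of chromosome 19 held 12 and 4 of 194, and the high-coordinate end of chromosome 8 held 12 and 1 of 146.

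**Figure D4:**
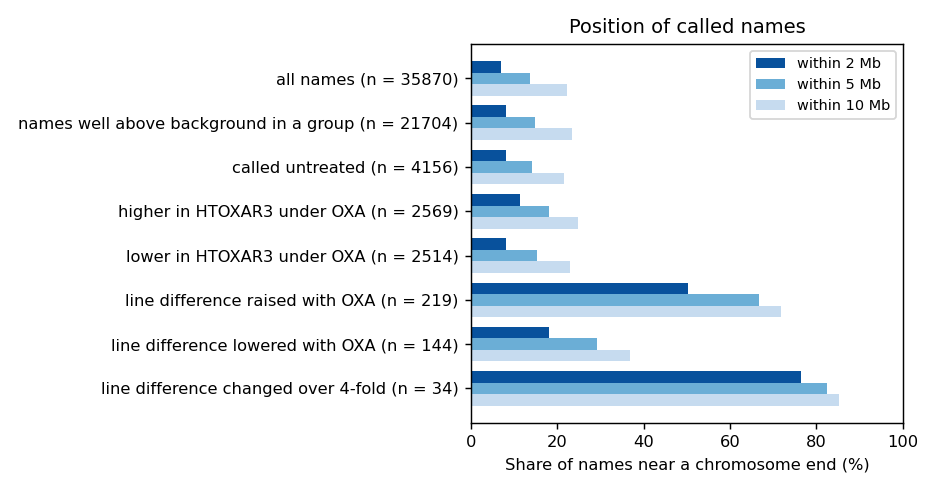
Percent of names (horizontal axis) whose probe lay within 2, 5 or 10 Mb of the outermost probe of the chromosome, for 8 sets of names. The raised names and the names changed over 4-fold have larger shares than the others at each distance. The names higher in HTOXAR3 under OXA lie between them and all names, with 11.3% within 2 Mb against 6.91%.

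Of the 146 raised names near an end, 141 had fallen in HT29 and 53 in HTOXAR3. Over all names that fell with OXA in HT29 the 5 Mb share was 20.3%, and it was 16.4% in HTOXAR3. The GC content of the probes had a median of 45.0% for raised and for lowered names and of 43.3% for all names. Base composition of the genes moved with the pattern, and its part was not tested: in the RefSeq promoter windows, 250 bases before to 50 after the start, the median GC content was 71.3% for 165 raised genes, 73.3% for the 113 of these near an end, 67.7% for all genes near an end, 63.8% for lowered genes and 62.3% for all genes. The median number of CpG pairs in the window was 36, 38, 28, 17.5 and 21 in that order. Single genes varied widely, as the 100 bases before the start of *PIGQ* (chr16:569868-569967, + strand) and *SLC19A1* (chr21:45563026-45563125, - strand) show. They are shown because these genes had changes of like size and unlike promoter windows, with 40 and 5 CpG pairs and a GC content of 77.0% and 47.0%. Each window belongs to an annotated start, and which start these cells used was not measured. The sequences are from RefSeq, build GRCh38.p14, 5′ to 3′, with CpG pairs in capitals.
PIGQ: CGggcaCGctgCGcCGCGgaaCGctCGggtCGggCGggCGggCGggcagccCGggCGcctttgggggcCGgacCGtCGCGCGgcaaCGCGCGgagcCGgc
SLC19A1: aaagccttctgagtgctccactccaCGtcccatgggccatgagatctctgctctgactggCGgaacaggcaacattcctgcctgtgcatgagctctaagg

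*CXCL1*, *CXCL2*, *CXCL3* and *CXCL8* attract neutrophils, and their promoters are known to carry an NF-kB element close to the start. The 9-base motif GGAATTTCC was found in the 100 bases before the start of *CXCL1* (chr4:73869293-73869392, +), *CXCL2* (chr4:74099196-74099295, -), *CXCL3* (chr4:74038690-74038789, -) and *CXCL8* (chr4:73740469-73740568, +), beginning 78, 77, 78 and 91 bases before it. On either strand, as GGAATTTCC or GGAAATTCC, it was present in 129 of 27305 promoter windows (0.472%), and a match is a description of the letters and not a shown binding site. The 4 sequences (RefSeq, GRCh38.p14, 5′ to 3′, motif in capitals) are shown because the values of these 4 chemokines are compared next, and those of *CXCL1*, *CXCL2* and *CXCL3* closely resemble each other.
CXCL1: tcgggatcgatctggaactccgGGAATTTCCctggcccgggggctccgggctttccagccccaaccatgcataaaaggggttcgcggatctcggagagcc
CXCL2: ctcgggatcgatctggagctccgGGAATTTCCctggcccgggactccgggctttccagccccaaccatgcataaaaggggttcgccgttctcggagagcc
CXCL3: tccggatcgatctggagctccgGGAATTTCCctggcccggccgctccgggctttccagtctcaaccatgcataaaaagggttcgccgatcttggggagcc
CXCL8: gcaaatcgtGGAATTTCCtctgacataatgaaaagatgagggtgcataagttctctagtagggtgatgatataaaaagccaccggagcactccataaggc

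*CXCL1* was at 12.38, 12.24 and 12.22 in HTOXAR3 and at 12.39, 12.31 and 12.28 in HT29 under OXA, and the lines overlapped. The difference was -0.05 (SE 0.13) and was not called. Untreated, the arrays were at 12.04, 12.11 and 12.26 against 10.48, 10.46 and 11.02, a difference of 1.48 (BY adjusted p = 1.76e-05), so that the difference was lowered by 1.53 (SE 0.19, BY adjusted p = 0.00373, limma) through a rise of 1.67 in HT29. *CXCL2* was at 10.58, 10.38 and 10.74 against 10.90, 11.01 and 10.83 under OXA, -0.35 and not called, and its change was -1.38 (SE 0.18, BY adjusted p = 0.0064), with a rise of 0.56 in HT29 and a fall of 0.82 in HTOXAR3. *CXCL3*, at 7.77, 7.47 and 7.66 against 8.08, 8.28 and 8.30, had a line difference of -0.59 (BY adjusted p = 0.161) and a change of -0.99 (BY adjusted p = 0.31). *CXCL8*, which encodes interleukin-8, was the member still higher in HTOXAR3. It stood at 10.04, 9.73 and 9.72 against 8.61, 8.60 and 8.56, a difference of 1.24 (SE 0.21, BY adjusted p = 0.00481), and in untreated cells at 9.34, 9.32 and 9.32 against 6.17, 6.58 and 7.34. Its change of -1.39 was not called (BY adjusted p = 0.2). Without replicate 3 of untreated HT29 the changes of *CXCL8* and *CXCL3* became -1.71 and -1.19 and were called.

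Of the 45 chemokines, cytokines and receptors 10 (22.2%) were higher and 6 (13.3%) lower in HTOXAR3. The median difference was 0.08 against -0.0004 over all names. With the groups of the contrast fitted alone, 4 were higher and 4 lower. Over all names 7.14% were higher and 6.98% lower, and the shares of this and the following lists are to be read beside these. The inflammatory cytokine *IL1B* was at 8.65, 8.50 and 8.56 in HTOXAR3 and at 6.18, 5.93 and 6.01 in HT29, 5.78-fold higher (2.53, SE 0.13, BY adjusted p = 3.89e-08). The growth factor of granulocytes and macrophages *CSF2* was at 10.03, 10.26 and 9.97 against 7.61, 7.29 and 7.55 (2.60, SE 0.15, BY adjusted p = 2.05e-07). Neither gene overlapped between the lines, and untreated cells differed by 2.74 and 2.43. The angiogenic factors *VEGFC* (1.60) and *VEGFA* (1.40) and the cytokine subunit *IL23A* (1.12) were also higher, a second *VEGFA* probe differing by -0.08. The interleukin-22 receptor *IL22RA1* (-1.28, BY adjusted p = 1.65e-08) was lower. *CCL20*, a chemokine for lymphocytes and dendritic cells, was at 5.41, 5.25 and 5.17 against 6.37, 6.66 and 6.74 (-1.31, BY adjusted p = 0.0266). Its call was lost without any of 5 of the 6 arrays, with differences of -1.24 to -1.38.

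Among 38 NF-kB subunits, inhibitors and products 9 (23.7%) were higher and 8 (21.1%) lower, with a median of 0.09. Without single arrays 5 to 6 were lower. With the groups of the contrast fitted alone, 5 were higher and 1 lower. None of the 5 subunits was called: *NFKB1* differed by 0.19, *NFKB2* by 0.26, *RELA* by -0.20, *RELB* by 0.05 and *REL* by 0.00. The inhibitors *NFKBIA* (0.23) and *TNFAIP3* (0.14) were not called either, nor were the products *BIRC5* (0.18) and *CCND1* (0.19). *PTGS2*, the inducible cyclooxygenase, was at 8.94, 9.02 and 8.88 in HTOXAR3 and at 6.07, 5.86 and 6.07 in HT29, a difference of 2.95 (SE 0.16, BY adjusted p = 6.82e-08). The antiapoptotic *BCL2* was at 6.51, 6.71 and 6.44 against 5.33, 5.34 and 5.46 (1.18, BY adjusted p = 1.56e-05), and the kinase *AKT1* at 12.27, 12.49 and 12.44 against 11.64, 11.69 and 11.48 (0.79, BY adjusted p = 0.000184). HTOXAR3 was above HT29 on every array for these 3 genes. *CD83* (1.60) and the NF-kB-inducing kinase *MAP3K14* (0.69) were higher too, and *NFKBIZ*, a nuclear regulator of NF-kB, was lower (-1.11). *PLAU*, the urokinase, was 0.67 higher, but its difference was lowered with OXA by 0.77, with rises of 2.77 in HT29 and 2.00 in HTOXAR3.

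Among 34 genes of the damage-induced arrest and death response 6 (17.6%) were higher and 2 (5.88%) lower (median 0.15). The CDK inhibitor *CDKN1A* was at 6.69, 6.73 and 6.46 in HTOXAR3 and at 5.40, 5.22 and 5.23 in HT29, without overlap, a difference of 1.34 (SE 0.14, BY adjusted p = 4.4e-05). The response to OXA was 0.88 in HTOXAR3 (BY adjusted p = 0.00352) and 0.04 in HT29, yet the change of the line difference, 0.85, was not called (BY adjusted p = 0.31). The death receptor *FAS* was at 9.34, 9.25 and 9.33 against 8.20, 8.33 and 8.45 (0.98, BY adjusted p = 7.24e-07), and its difference was raised with OXA by 0.76 (BY adjusted p = 0.00358). The BH3-only gene *PMAIP1* differed by 0.87, raised by 0.62 (BY adjusted p = 0.0293), a change that lost its call without any of 10 of the 12 arrays, at 0.55 to 0.65. The differences of *GADD45A* and *PLK3* were also raised with OXA, by 0.82 and 0.64. Neither was called under OXA (0.35 and 0.22), and both were called lower in untreated HTOXAR3 (-0.47 and -0.42). *GDF15* (-0.37) was not called, nor was the ubiquitin ligase *MDM2* by its brightest probe (0.13), while another of its probes well above background on all 6 arrays differed by 0.68 (SE 0.10).

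Of 27 nucleotide excision repair genes 4 (14.8%) were higher and none lower (median 0.06), beside 14.1% of all names called in either direction. No member of the list was called with the groups of the contrast fitted alone. *ERCC1*, a subunit of an incision nuclease often discussed with platinum drugs, was at 13.39, 13.57 and 13.38 against 13.27, 13.26 and 13.34, a difference of 0.16 (BY adjusted p = 0.89). *MNAT1*, which assembles the CDK-activating kinase of TFIIH, was at 11.56, 11.57 and 11.49 against 10.58, 10.63 and 10.16 (1.08, BY adjusted p = 1.07e-05). *UVSSA*, of transcription-coupled repair, was at 11.13, 11.21 and 11.38 against 9.31, 10.31 and 10.19 (1.31, BY adjusted p = 0.00134, with 0.35 and 1.9995 by its other probes), and the TFIIH subunit *GTF2H4* differed by 0.70. Of 37 Fanconi anemia and homologous recombination genes 4 (10.8%) were higher and 3 (8.11%) lower, near the shares of all names. Without single arrays 3 to 5 were lower. *RAD51B*, a recombination gene, was at 7.51, 7.44 and 7.51 against 6.04, 6.37 and 6.28 (1.25, BY adjusted p = 4.06e-05), while *BRCA1* (-0.20), *BRCA2* (0.08) and *FANCD2* (-0.12) were not called. In mismatch repair 1 of 13 genes (7.69%) was higher, *MLH3* (0.54), and 2 (15.4%) were lower, *PMS1* (-0.80) and *POLD4* (-0.52). The recognition and processing genes *MSH6* (0.15) and *PMS2* (-0.03) were not called. In translesion synthesis, which copies past adducts, *POLH* was higher (0.79, BY adjusted p = 3.08e-05) and *POLQ* lower (-0.54), of 14 genes. These were 7.14% in each direction, near the shares of all names. Of 23 checkpoint genes 2 were higher and 3 lower, among the latter the kinases *CHEK2* (-0.49) and *ATR* (-0.31). Without single arrays 0 to 2 were higher and 2 to 5 lower. The calls of *POLQ* and *ATR* were each lost without any of 4 of the 6 arrays, at -0.44 to -0.52 and -0.27 to -0.32.

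Of 40 genes of G2 and mitosis 12 (30.0%) were higher and 1 (2.5%) lower under OXA (median 0.16), against 2 and 1 in untreated cells, but no member had a called change of the line difference with OXA. They included *DLGAP5* (0.68), *CCNB1* (0.54, BY adjusted p = 0.000118), the cyclin of mitotic entry, *CKS2* (0.52) and *KIF20A* (0.50), none of the list over 2-fold, but *CDK1* (-0.05), *PLK1* (0.17) and *MKI67* (-0.02) were not called. The count of higher members was 9 to 12 without single arrays and 1 with the groups of the contrast fitted alone. Of 43 replication genes 6 were higher and 2 lower, or 3 to 5 and 1 to 2 without single arrays. *CHAF1A*, the large subunit of a histone chaperone, was at 12.79, 12.82 and 12.79 against 11.87, 11.97 and 11.76, and its difference was raised by 0.76 (BY adjusted p = 0.0116), a call lost without replicate 1 or 3 of untreated HTOXAR3, at 0.73 and 0.74. Of 18 G1 genes 4 (22.2%) were higher, among them the CDK4 and CDK6 inhibitor *CDKN2C* (1.15) and *RB1* (0.78). In the other direction 2 (11.1%) were lower, or 1 to 3 without single arrays, with *CDKN1C* at -1.19. Of 42 clustered histone genes 3 (7.14%) were higher and none lower, with a median of 0.26, and the count was 0 to 8 when single arrays were left out and 16 with slide as a fixed block.

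Of 25 genes linked to platinum transport 5 were higher and 7 lower. The copper transporter *SLC31A1*, through which platinum drugs enter, was at 9.19, 9.30 and 9.24 in HTOXAR3 and at 9.28, 9.35 and 9.47 in HT29, values that overlapped, and was not called (-0.13). The copper exporter *ATP7B* was at 10.09, 10.01 and 10.17 against 9.34, 9.49 and 9.49 (0.65, BY adjusted p = 0.000332), while *ATP7A* was not called (-0.17). The multidrug exporter *ABCB1* was at 6.15, 6.10 and 6.04 against 4.78, 5.11 and 5.10 (1.10, BY adjusted p = 5.67e-05), and *ABCC4* at 7.01, 6.92 and 6.82 against 8.30, 8.26 and 8.19 (-1.33, BY adjusted p = 1.1e-06). The exporters thus moved in both directions, with *ABCB6* (-1.01) and *ABCG2* (-0.70) lower and the cation carrier *SLC22A4* (1.04) higher. *ABCC6* was lower too (-1.22), with 2 further probes at -1.03 and -1.41 and a dimmer one at -0.15.

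Of 54 glutathione, metallothionein and NRF2 genes 20 (37.0%) were lower and 5 (9.26%) higher, with a median of -0.26. Without single arrays 15 to 18 were lower and 3 to 4 higher, and 6 were lower with the groups of the contrast fitted alone. In untreated cells 17 were lower and 3 higher. NRF2 is the transcription factor that answers oxidative stress. The lower members were led by aldo-keto reductases, which reduce reactive carbonyls. *AKR1C1* was at 7.37, 7.45 and 7.39 in HTOXAR3 and at 10.29, 10.37 and 10.33 in HT29, a difference of -2.93 (SE 0.19, 7.61-fold, BY adjusted p = 5.02e-07). *AKR1B10* was at 11.20, 11.25 and 11.29 against 13.97, 14.09 and 14.09 (-2.80, BY adjusted p = 1.1e-09), and *AKR1B1* at 10.01, 10.04 and 10.18 against 12.57, 12.75 and 12.81 (-2.63, BY adjusted p = 1.02e-09). None of the 3 overlapped between the lines. The aldo-keto reductase *AKR1C3* (-1.48), the pentose phosphate enzyme *TALDO1* (-0.78) and the quinone reductase *NQO1* (-0.37, BY adjusted p = 0.00631) were also lower. Heme oxygenase *HMOX1*, another NRF2 target, went the other way, at 10.92, 10.72 and 10.71 against 10.00, 9.92 and 10.01 (0.81, BY adjusted p = 0.000913). Of 10 metallothioneins, which bind metals, 6 were lower: *MT1A* (-0.35), *MT1E* (-0.60), *MT1F* (-0.81), *MT1G* (-0.80), *MT1M* (-0.73) and *MT1L* (-0.39). The call of *MT1F* was lost without any 1 of the 6 arrays and that of *MT1G* without any of 4 of them. *MT2A* (0.04), *MT3* (-0.02), *MT1X* (-0.26) and *MT1H* (-0.73, SE 0.59) and the glutathione synthesis subunit *GCLM* (-0.68, BY adjusted p = 0.125) were not called. The MT1 and the AKR1C genes are close copies of each other within each family, and a second *AKR1C1* probe differed by -1.93.

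Of 25 folate and thymidylate genes 6 (24.0%) were higher and 1 (4.0%) lower. Beside *SLC19A1*, the hydrolase *GGH* (0.89), the folate enzyme *MTHFD1* (0.65) and *DPYD* (0.78), which degrades fluorouracil, were higher, as was *MTHFD1L* (0.66), for which 2 further probes gave 0.63 and 0.70 and another 0.09, and the folate receptor *FOLR1* was lower (-1.53). The call of *DPYD* was lost without any of 4 of the 6 arrays, at 0.71 to 0.77. Thymidylate synthase *TYMS* (0.23, BY adjusted p = 0.0702) was not called. Of 35 apoptosis genes 6 (17.1%) were higher and 12 (34.3%) lower, with a median of -0.14. *BOK*, a proapoptotic BCL2 relative, was at 11.21, 11.39 and 11.33 against 9.59, 9.95 and 9.99 (1.46), raised with OXA by 1.67 (BY adjusted p = 0.000296), and the death ligand *TNFSF10* (-1.11), *BCL2L2* (-0.79) and the initiator caspase *CASP8* (-0.67) were lower. *BCL2L1*, *MCL1* and *BAX* were not called. *CASP10* was at 12.60, 12.71 and 12.72 against 11.70, 11.69 and 11.81 (0.94), but 2 other probes gave -2.10 and -1.67, so that its direction depends on the probe.

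Of 59 markers of intestinal differentiation 14 (23.7%) were lower and 5 (8.47%) higher, with 17 and 4 in untreated cells. The stem cell factor *ASCL2* was at 8.51, 8.63 and 8.55 in HTOXAR3 and at 11.83, 11.85 and 11.61 in HT29 (-3.20), and the goblet cell peptide *TFF3* at 8.28, 8.35 and 8.49 against 10.81, 10.97 and 10.97 (-2.55, with -2.12 and -0.76 by its other probes). HT29 exceeded HTOXAR3 on every array for each. *VIL1*, the actin bundler of microvilli, was at 10.64, 10.64 and 10.77 against 13.11, 13.15 and 13.09 (-2.43, BY adjusted p = 1.85e-10), and its difference was lowered with OXA by 0.82 (BY adjusted p = 0.00448), HT29 having risen by 1.06. The lectin *LGALS4* was at 12.84, 12.92 and 12.91 against 15.13, 15.17 and 15.15 (-2.26). *LGR5*, the stem cell receptor for R-spondins, was lower (-1.23, BY adjusted p = 0.000702), and *MUC2* (-0.09) was not called. In these bulk cultures fewer cells of a kind and less RNA per cell cannot be told apart.

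Adhesion and protease genes moved both ways. Of 31 genes of epithelial-mesenchymal transition 3 (9.68%) were higher and 4 (12.9%) lower. The matrix protein *TGFBI* (1.92, BY adjusted p = 1.47e-09), P-cadherin *CDH3* (1.42) and vimentin *VIM* (1.02, BY adjusted p = 0.00201) were the higher ones, the last losing its call under the scaling of the scanner's processed signal (1.16), and E-cadherin *CDH1* (-0.26) was not called. Of 49 laminins, integrins and proteases 9 (18.4%) were higher and 10 (20.4%) lower. The secreted protease *KLK11* was at 10.13, 10.19 and 10.12 against 13.52, 13.60 and 13.64 (-3.44, 10.9-fold, BY adjusted p = 3.27e-11). *TMPRSS2* (-1.44) and *PLAUR*, the urokinase receptor (-0.91), were lower. Beside *PLAU*, the differences of the matrix protease *MMP7* (-0.73), the laminin chains *LAMB2* (-0.94) and *LAMC1* (-1.07) and *TIMP2* (-1.13) were lowered with OXA. Of 46 keratins, claudins and S100 proteins 8 (17.4%) were higher, with *KRT13* at 2.14, and 10 (21.7%) lower, with *CLDN1* at -0.86. Without single arrays 4 to 6 were higher and 6 to 8 lower.

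Of 44 genes of EGFR signaling 6 (13.6%) were higher, among them the feedback inhibitor *SPRY2* (1.12), and 8 (18.2%) lower, among them the early response genes *FOSB* (-1.21) and *FOS* (-0.98). The receptor *ERBB3* differed by -1.20 by its brightest probe and by 0.57 (SE 0.09) by another that was well above background on all 6 arrays, so that its direction depends on the probe. Of 42 BMP and TGF-beta genes 6 were higher and 8 lower. The TGF-beta coreceptor *TGFBR3* (1.73) and *LTBP1* (1.51) were higher. *BAMBI*, a decoy receptor induced by these ligands, was at 7.31, 7.37 and 7.28 against 8.94, 8.96 and 9.05 under OXA (-1.66), and the difference was raised by 1.16 (BY adjusted p = 0.00385) through a rise of 1.19 in HTOXAR3 and 0.04 in HT29. The ligand *BMP2* had the same pattern, at 8.81, 8.66 and 8.39 against 9.02, 8.94 and 9.02 under OXA, where it was not called, and at 7.51, 7.31 and 7.37 against 8.97, 8.95 and 9.13 untreated, a change of 1.25 (BY adjusted p = 0.00331).

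Of 48 interferon-stimulated and antigen presentation genes 11 (22.9%) were higher and 6 (12.5%) lower, against 21 and 4 in untreated cells. No member had a called change with OXA, and 4 to 8 were higher when single arrays were left out. With the groups of the contrast fitted alone 3 were higher and 1 lower, and under Benjamini-Hochberg adjustment 19 and 7. *IFI44L* (1.31), *IFI6* (1.08), *RSAD2* (0.90) and *IFIT1* (0.85) were higher, *IFITM2* was lower (-0.92), and *ISG15*, *MX1* and *B2M* were not called. The calls of *IFI44L* and *IFIT1* were lost without any of 4 and 5 of the arrays, at 1.18 to 1.29 and 0.72 to 0.89. Of 37 glycolysis and hypoxia genes 11 (29.7%) were higher and 4 (10.8%) lower, against 8 and 8 in untreated cells. Without single arrays 7 to 8 were higher, and 5 with the groups of the contrast fitted alone. The hypoxia factor *HIF1A* (0.99) and hexokinase *HK2* (0.81) were higher, *SLC16A3* was at 15.07, 15.14 and 15.16 against 14.25, 14.23 and 14.34 (0.85), its difference raised by 1.31, and the carbonic anhydrase *CA9*, also listed with the intestinal markers, was at 7.01, 7.18 and 6.73 against 10.27, 10.25 and 10.13 (-3.24). Of 39 genes of the unfolded protein and ATF4 responses 9 (23.1%) were higher and 4 (10.3%) lower, with 2 to 3 lower without single arrays. The amino acid transporter *SLC7A5*, at 12.15, 12.15 and 12.23 against 11.01, 10.93 and 10.96 (1.21), had its difference raised by 0.86 (BY adjusted p = 0.00083). The stress factor *ATF3* was at 13.23, 13.24 and 13.09 against 14.32, 14.32 and 14.19 (-1.09, BY adjusted p = 0.00202), lower by all 4 of its probes, while *DDIT3*, *ATF4* and *HSPA5* were not called. Of 33 heat shock genes 7 (21.2%) were higher, led by the cochaperone *DNAJC6* (4.27), and 4 (12.1%) lower. Of 32 cholesterol and fatty acid synthesis genes 3 (9.38%) were higher and 2 (6.25%) lower, near the shares of all names, with 1 to 2 higher without single arrays.

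Of 50 genes of ribosome biogenesis 14 (28.0%) were higher and 3 (6.0%) lower, against 5 and 4 in untreated cells, and 1 member had a called change with OXA. The count of higher members was 10 to 14 without single arrays and 1 with the groups of the contrast fitted alone. The changed member was *BOP1*, which processes the precursor of the large ribosomal RNAs. It was at 12.46, 12.50 and 12.53 in HTOXAR3 and at 10.07, 10.10 and 9.97 in HT29 under OXA and at 13.29, 13.39 and 13.26 against 13.55, 13.57 and 13.40 untreated. HTOXAR3 was the higher line under OXA and not in untreated cells. The difference under OXA was 2.45 (SE 0.07, BY adjusted p = 1.76e-10) and the change 2.64 (SE 0.10, BY adjusted p = 8.7e-08), HT29 having fallen by 3.46 and HTOXAR3 by 0.82. The other higher members moved less, with *RRP1* at 0.66, *RRP9* at 0.52 and *NOP56* at 0.39, and *WDR12* (-0.60) and *GNL3* (-0.51) were lower. The plot of the gene lists sets the shares of all 28 lists beside those of all names. Their order depends on the setting: with the groups of the contrast fitted alone, intestinal markers had 11 lower members, apoptosis genes 2 and platinum transport genes 3.

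**Figure D5:**
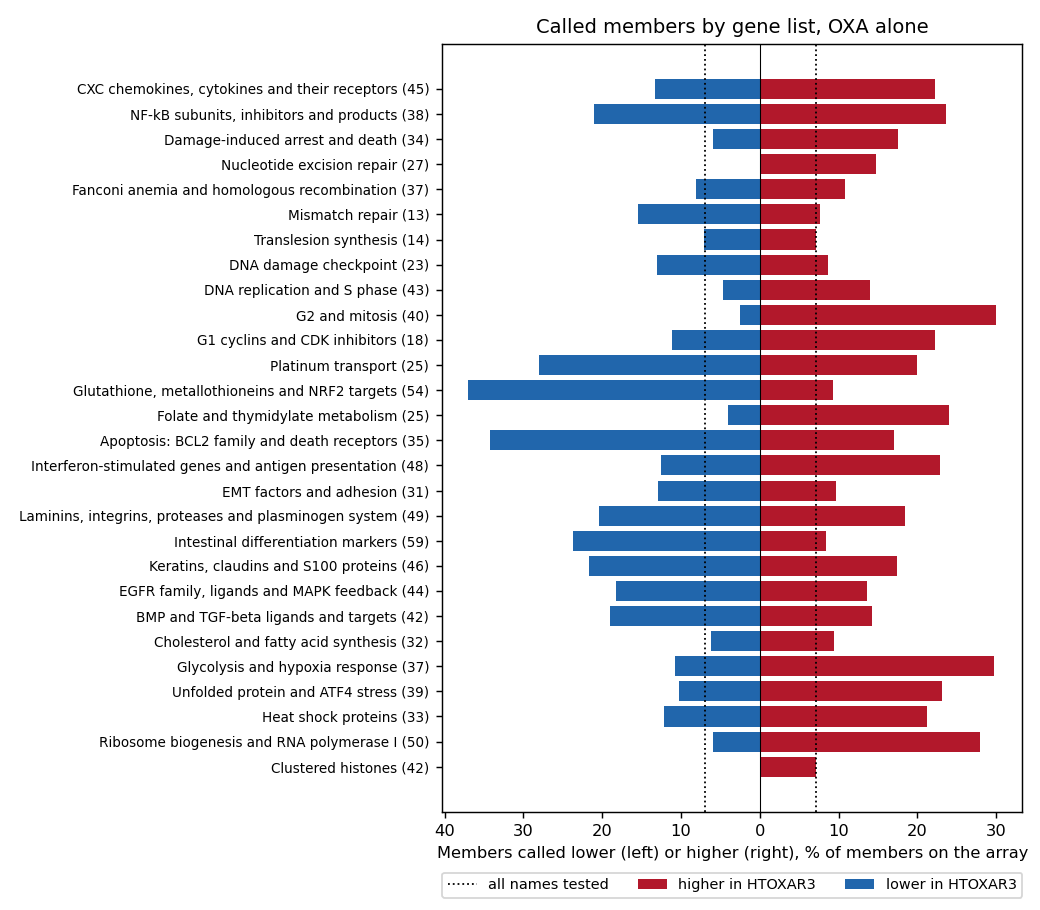
Percent of members of each of 28 gene lists called lower (bars to the left) or higher (bars to the right) in HTOXAR3 than in HT29 under OXA; dotted lines mark the shares over all names, 6.98% lower and 7.14% higher. Glutathione and NRF2 genes, apoptosis genes and platinum transport genes extend farthest to the left here, and G2 and mitosis, glycolysis and ribosome genes farthest to the right.

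With Curcumin added to the same OXA doses, 5023 names were called between the lines. These share no array with the comparison under OXA alone: 3769 names were called in both, 73.7% of the calls under OXA alone and 75% of those with Curcumin, and 3767 pointed the same way. The line difference changed when Curcumin was added for 49 names (0.135%), a count that was 8 to 29 without any of 11 of the 12 arrays behind it. *SLC19A1* had a difference of 2.20 with Curcumin against 3.91 without (change -1.71, BY adjusted p = 0.0239), and *ARFRP1*, *BOP1* and *CHLSN* changed by -1.34, -1.23 and -1.39. The differences of *CXCL1*, *CXCL2*, *CXCL3* and *CXCL8* had no called change with Curcumin.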

How the data were processed

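Cy3-labelled RNA was hybridized to 18 Agilent 1-colour arrays on 3 slides, read with Feature Extraction 10.7.3.1 per the file headers. The deposited scanner files hold spot and local background intensities, not yet normalized. A deposited series table holds log2 values, which the authors made by normexp background correction, quantile normalization and reduction to gene names; its rows carry no names, and it served as an alternative only.

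Here, normexp correction (offset 0, since the methods state none), removal of control spots, quantile normalization, omission of outlier spots and averaging of spots per probe gave 50599 probes. The brightest probe stood for each of 36204 names, of which 8947 had several. limma 3.58.1 (R 4.3.3) fitted 1 mean per group over all 18 arrays with 6 groups, with BY adjustment over all names, as in the methods, and the fit was tested on simulated data. Python 3.11.15, pandas 2.3.3, numpy 2.4.6 and matplotlib 3.10.9 served for summaries and plots. A probe was well above background by the scanner software's own mark. Symbols came from RefSeq by accession for 21244 names, by symbol for 1119 and by older symbol for 265, while 13576 names stayed unmatched. A bound set the mean of the bright line against, per array of the other, the higher of the lowest signal well above background and the probe's own.

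Genes named are the 10 largest rises and falls, the 5 largest bounds and changes in each direction, and in 28 gene lists the core members and up to 6 further called ones. Exceptions are marked as chosen after their values were seen, apart from the following. Cell type markers and the metallothioneins beyond these rules were named as well. *GADD45A*, *PLK3*, *LAMB2*, *LAMC1* and *TIMP2* were named after their values were seen, because their change with OXA was called. Some members of other lists with a called change were left out. The comparison, the lists and the genes were chosen with earlier results of these data known. Alternatives were other offsets and scalings, the processed signal, other adjustments and fold limits, leaving out dim probes, the mean of all probes, the groups of the contrast alone, slide or replicate number as a block, the deposited table and leaving out each array. The number of arrays limits the precision. Some genes are not reported here.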

Additional observations from a re-analysis of the deposited data

Results flagged for a closer look

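The genes below were set apart because their difference between HTOXAR3 and HT29 was not the same under OXA as in untreated cells, by the test of that difference in the limma fit with BY adjustment. Values are the log2 line difference under OXA minus that untreated. Lowered were *PDE6G* (-3.54), *SPON2* (-2.87), *NHLRC4* (-2.15), *SNORA48* (-2.03), *RGS11* (-1.87), *CXCL1* (-1.53), *CXCL2* (-1.38), *DMKN* (-1.37), *VIL1* (-0.82), *PLAU* (-0.77) and *MMP7* (-0.73). Raised were *SLC19A1* (3.88), *SLC38A10* (3.61), *PIGQ* (3.53), *CHLSN* (3.24), *ARFRP1* (3.096), *BOP1* (2.64), *BOK* (1.67), *UVSSA* (1.615), *SLC16A3* (1.31), *BMP2* (1.25), *BAMBI* (1.16), *SLC7A5* (0.86), *FAS* (0.76), *CHAF1A* (0.76), *HSPA4L* (0.70), *PMAIP1* (0.62) and *HK2* (0.62). The *UVSSA* change (BY adjusted p = 0.0415) came from the brightest of 3 probes, the others giving 0.50 and 1.88, and lost its call without any of 9 of the 12 arrays (*UVSSA* at 1.55 to 1.67). *BAMBI* and *BMP2* differ from the rest in that the HTOXAR3 level moved while that of HT29 did not pass the test.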

How the results depend on the processing

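Under OXA the 5111 calls became 1266 with a 2-fold minimum, 1611 with the groups of the contrast alone and 3966 to 4660 without single arrays; the 4177 untreated calls became 1013, 1258 and 3317 to 3545, and the 5023 with Curcumin 1165, 1607 and 3970 to 4405. The 364 changes with OXA became 636 with a normexp offset of 50, 645 without dim probes, 1087 under Benjamini-Hochberg adjustment (48.8% of them raised, against 60.4%), 178 with a 2-fold minimum, 216 with the groups of the contrast alone and 259 to 321 without single arrays. The 49 changes with Curcumin became 79 and 181 with offsets of 16 and 50, 139 without dim probes, 323 under Benjamini-Hochberg adjustment, 22 with a 2-fold minimum, 5 with the groups of the contrast alone, 146 in the deposited table, 31 with the replicate block and 8 to 61 without single arrays, 61 being the count without replicate 1 of HT29 under OXA with Curcumin. The cause was not tested. Scaling to the 75th percentile moved the median difference of all names under OXA by 0.15, and by -0.14 for the processed signal. Replicate numbers did not pair the OXA arrays (correlations of deviations 0.044, -0.064 and -0.129), and with the replicate block 5048 names were called under OXA and 329 changed. *CASP10* turned to -0.69 with the mean of all probes. Of 302 named genes 155 kept the side of the threshold of their line difference under every setting, as did 15 of 31 for the change. The share of raised names near a chromosome end, a setting-by-setting check added after the data were seen, was 44.9% to 77.6% over 24 settings, and that of lowered names was lowest under Benjamini-Hochberg adjustment, at 94 of 553, and highest with a 2-fold minimum, at 47.5%.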

Other observations

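Among the 30 names called in opposite directions under OXA and in untreated cells, all chosen after their values were seen, several carried no value above. *PICSAR*, a long noncoding RNA, was 1.11 lower in untreated HTOXAR3 and 1.60 higher under OXA. *TOLLIP*, an adaptor of Toll-like receptor signaling, went from 0.47 lower to 0.68 higher, and *SSU72*, a phosphatase of RNA polymerase II, from 0.40 lower to 0.74 higher. *CLUAP1*, a protein of cilia, went from 0.51 higher to 0.96 lower, and *SNORA63*, a small nucleolar RNA, from 0.94 higher to 0.57 lower. Among the names whose difference changed with Curcumin, 25 of the 49 (51.0%) lay within 5 Mb of a chromosome end.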
